A study of Mus musculus with 37 samples.

Results

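Fatty acid oxidation and peroxisome genes were followed across 9 components of the developing mouse kidney. A list of 32 genes named by symbol defined the group. The list was chosen with earlier results of these data known, so the choice was not blind to them. On the arrays 31 of the 32 were represented, by 56 probe sets. Acsl1, a long-chain acyl-CoA synthetase gene, had no such probe set and was not analysed here. All 31 genes passed the filter on low signal, among 15709 genes kept in the whole series.

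The samples were wild-type CD-1 mouse kidney tissue of unrecorded sex, hybridized to 37 arrays. They came from 8 samples of metanephric mesenchyme and 4 of ureteric bud at stage E11.5 (embryonic day), and 5 of renal vesicle at E12.5. At E15.5 there were 4 samples of S-shaped body, 4 of renal corpuscle, 2 of early proximal tubule, 3 of ureteric tip, 3 of medullary collecting duct and 4 of medullary interstitium. Each was described as a pool of about 50 laser-captured sections from 5 kidneys, with 2 rounds of RNA amplification. The titles of mesenchyme replicates 5 to 8 and of all ureteric bud samples instead name dissection or collagenase. No label says which samples came from separate animals, so p-values measure the spread between these pools, which may be technical in part. In tissue captured in bulk, fewer cells of a type and less RNA per cell cannot be told apart.

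Fatty acids are activated to acyl-CoA, and long chains enter mitochondria through the carnitine shuttle. There they are shortened in repeated rounds of dehydrogenation, hydration, a second dehydrogenation and thiolysis, with electrons passed on through the electron transfer flavoprotein. Peroxisomes shorten very long and branched chains by a parallel route that releases hydrogen peroxide, which catalase removes. The mature proximal tubule is known for its many mitochondria and peroxisomes and for its use of fatty acids as fuel.

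The promoters of members with large or called differences in the proximal tubule are shown first, because the members were later compared as a group. They are the 250 bases before the annotated start, from RefSeq on mouse build GRCm38.p6, each on its own strand from 5′ to 3′. Of the 31 members, 26 had a promoter in the table. Capitals mark AGGTCA, the core hexamer of many nuclear receptor sites, read on both strands, so that TGACCT marks the reverse strand. Slc27a2, Acadm and Acadvl are the members called in the proximal tubule that hold it, and Acaa1b, with one of the largest differences, is shown as one that does not.
Slc27a2, chr2:126552774-126553023, plus strand: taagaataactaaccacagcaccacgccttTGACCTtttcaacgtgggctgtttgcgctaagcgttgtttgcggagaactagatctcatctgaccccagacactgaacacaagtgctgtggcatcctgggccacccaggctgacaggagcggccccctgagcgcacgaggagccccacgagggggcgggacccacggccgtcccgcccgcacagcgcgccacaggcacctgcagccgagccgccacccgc
Acadm, chr3:153944644-153944893, minus strand: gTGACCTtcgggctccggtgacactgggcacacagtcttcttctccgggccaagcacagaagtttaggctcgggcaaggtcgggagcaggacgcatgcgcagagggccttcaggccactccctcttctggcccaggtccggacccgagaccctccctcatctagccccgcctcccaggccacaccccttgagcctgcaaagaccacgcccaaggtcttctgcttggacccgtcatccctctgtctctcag
Acadvl, chr11:70015429-70015678, minus strand: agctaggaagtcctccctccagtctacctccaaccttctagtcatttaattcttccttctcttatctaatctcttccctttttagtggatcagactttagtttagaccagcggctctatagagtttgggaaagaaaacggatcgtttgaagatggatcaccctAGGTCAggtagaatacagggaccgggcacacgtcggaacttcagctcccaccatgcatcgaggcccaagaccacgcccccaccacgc
Acaa1b, chr9:119157094-119157343, minus strand: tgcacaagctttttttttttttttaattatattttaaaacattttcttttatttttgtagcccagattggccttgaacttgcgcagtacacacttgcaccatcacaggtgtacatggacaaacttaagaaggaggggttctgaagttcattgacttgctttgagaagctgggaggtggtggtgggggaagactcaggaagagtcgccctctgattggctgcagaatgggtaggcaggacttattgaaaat
A gene was counted where any of its promoters held the letters. AGGTCA on either strand was found in 7 of 26 members (26.9%) and in 15.8% of 27025 mouse genes with promoters of the same length. The 7 members were Acadm, Acadvl, Cat, Cpt1a, Echs1, Scp2 and Slc27a2. Of the 10 members called higher in the proximal tubule that had a promoter, 3 held it. A direct repeat of 2 AGGNCA hexamers spaced by 1 base, a pattern bound by PPAR and HNF4 receptors, was in 0 members and in 0.4% of all genes. GGGCGG, a GC box, was in 16 members (61.5%) against 35.4% of all genes, and CCAAT was in 11 (42.3%) against 37.5%. These searches counted both strands, and AGGTCA can lie inside the longer repeat. A match is only a match of letters, and binding was not measured.

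Levels below are log2 of the deposited signal plus an offset, after quantile normalization, and log2 fold changes are differences of component means on that scale. Higher and lower are used of genes that passed limma's test, with an adjusted p under 0.05 over all genes and a difference of 1 or more on the log2 scale; such genes are also said to be called. Among the 37 arrays the median deposited signal ran from 127 to 334, and the number of arrays limits the precision. For 29 of 37 arrays the most similar other array was of the same component. Of 16 proximal tubule markers, 15 were highest in the proximal tubule (the exception was Kap). The mean over these 16 genes was 14.14 and 12.87 in the 2 proximal tubule arrays and at most 11.44 in any other array.

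Some libraries stood apart, and the main results that rest on them are given with and without them. Proximal tubule markers averaged 11.44 in S-shaped body replicate 3, while the remaining 3 arrays of that component had 8.76 to 9.14. The same array had podocyte markers at 14.58 and loop and distal tubule markers at 11.34. Renal corpuscle replicate 4 had podocyte markers at 11.20, against 13.90 to 14.98 in the other 3. Its early nephron markers averaged 13.24 (10.05 to 10.47 in the others), and its most similar array was S-shaped body replicate 2. In S-shaped body replicate 3 early nephron markers averaged 9.95 (13.09 to 13.66 in the others), and the most similar array was renal corpuscle replicate 1. By podocyte and early nephron markers each of these 2 libraries thus lay with the other's component. The reason was not tested. Proximal tubule replicate 2 was most similar to ureteric tip replicate 3, whose title bears the same date code.

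**Figure D1:**
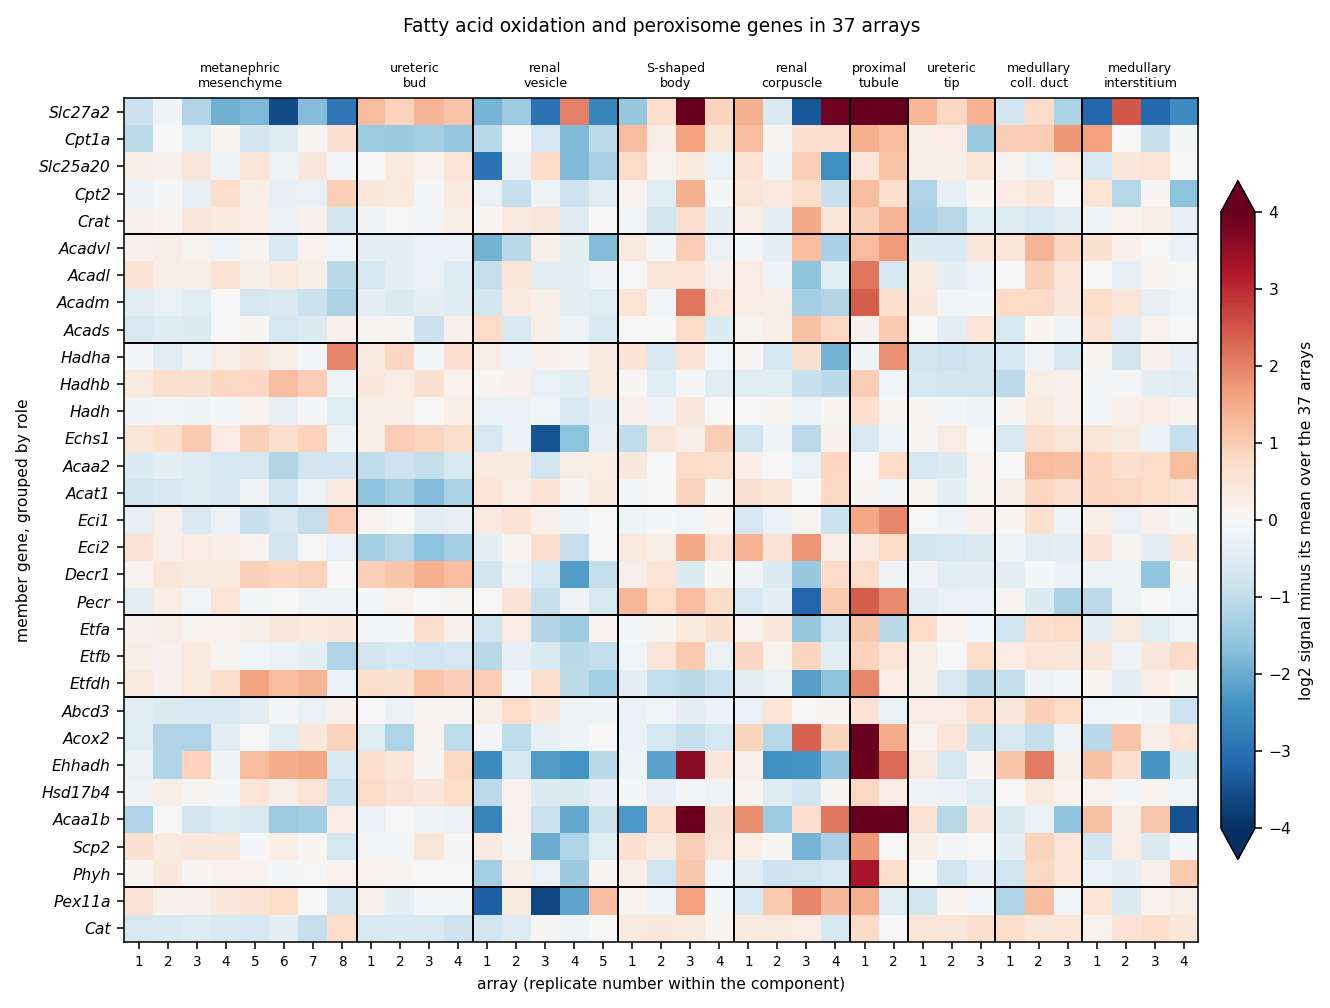
Heat map of the 31 members (rows, grouped by role) in the 37 arrays (columns, grouped by component and numbered by replicate); colour is the log2 signal minus the gene's mean over all arrays, saturating at 4 in either direction. Slc27a2 and Acaa1b stand out in both proximal tubule arrays and in S-shaped body replicate 3, while renal vesicle replicate 4 has the lowest of the 5 vesicle values for 11 members.

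Across all 9 components, 24 of 31 members differed by the moderated F-test, against a background of 49.9% of genes. The spread between the highest and lowest component means had a median of 2.12 over the members and 1.79 over all genes. The proximal tubule had the highest mean of the 9 components for 20 members, and the renal vesicle had the lowest for 11. For these counts the shares of all genes were not computed, so they are descriptions only. Among the 6 components of E15.5 the proximal tubule was highest for 23 of 31 members, and for 32.9% of all genes. The 7 members that did not pass the F-test were Slc25a20, Cpt2, Acadl, Acads, Hadha, Etfa and Pex11a.

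For each role the values of 1 member are given in detail, taken by rule as the probe set with the highest mean signal, which does not rank the genes by abundance. Slc25a20, the mitochondrial carnitine-acylcarnitine carrier, had a component mean between 11.77 ± 1.42 (SD, n = 5) in the renal vesicle and 13.70 ± 0.45 (n = 2) in the proximal tubule. Acadm, the medium-chain acyl-CoA dehydrogenase, ran from 12.14 ± 0.38 (n = 8) in the mesenchyme to 14.26 ± 1.26 (n = 2) in the proximal tubule. Hadh, a mitochondrial hydroxyacyl-CoA dehydrogenase, had the narrowest range of all members, from 15.66 ± 0.20 (n = 5) in the renal vesicle to 16.33 ± 0.44 (n = 2) in the proximal tubule.
Eci2, an enoyl-CoA isomerase, was lowest in the ureteric bud at 12.43 ± 0.20 (n = 4) and highest in the renal corpuscle at 14.81 ± 0.69 (n = 4). Etfa, the alpha subunit of the electron transfer flavoprotein, was lowest in the renal vesicle and highest in the mesenchyme, at 13.37 ± 0.13 (n = 8). Abcd3, the peroxisomal membrane transporter of long and branched acyl-CoA, peaked in the medullary collecting duct at 14.11 ± 0.27 (n = 3). Cat, catalase, lay between 13.11 ± 0.11 (n = 4) in the ureteric bud and 14.36 ± 0.11 (n = 3) in the collecting duct. These are levels of single probe sets, and they are not compared between genes.

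The proximal tubule was set against the S-shaped body, an earlier nephron stage taken on the same day, and against the mean of the other 5 components of E15.5. The uptake enzyme Slc27a2 and 4 of 7 peroxisomal oxidation members (Acaa1b, Acox2, Ehhadh and Phyh) were higher in the proximal tubule than in the other 5 components. The other 3 (Hsd17b4, Scp2 and Abcd3), and the peroxisomal members Cat and Pex11a, were not called. Differences between roles were not tested. Against the other 5 components 11 of 31 members were called higher and 0 lower, where 9.15% of all genes were called higher, 6.08% lower and 15.2% in either direction. Against the S-shaped body 6 were called higher and 0 lower, where 5.64% of all genes were called higher, 4.28% lower and 9.92% in either direction. Both proximal tubule arrays lay above all 4 S-shaped body arrays for 8 members and below them for 0, beside 15.3% and 10.9% of all genes, and outside all 18 other arrays for 3 and 0, beside 5.77% and 2.55%. The median log2 fold change of the members was 0.79 against the other 5 and 0.57 against the S-shaped body, beside 0.11 and 0.08 over all genes. The 2 comparisons share the proximal tubule and S-shaped body arrays.

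Slc27a2 encodes a very long-chain acyl-CoA synthetase and fatty acid transport protein (probe set 1416316_at). Its level was 16.39 and 14.28 in the 2 proximal tubule arrays, and 7.40, 9.60, 14.91 and 9.81 in S-shaped body replicates 1 to 4. Over the 18 arrays of the other 5 components it ran from 5.53 through a median of 9.65 to 14.91. As deposited, the proximal tubule signals were 134842 and 24167, against 29734.4 in S-shaped body replicate 3. The groups therefore overlapped through that 1 array, which lay above proximal tubule replicate 2. The log2 fold change was 6.20 (SE 1.34, adjusted p = 0.00116) against the other 5 and 4.90 (SE 1.56, adjusted p = 0.0376) against the S-shaped body. Leaving out S-shaped body replicate 3 with renal corpuscle replicate 4 gave 6.73 and 6.40.

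Among peroxisomal oxidation members, 4 of 7 were called higher against the other 5 components (median log2 fold change 2.12) and 3 of 7 against the S-shaped body (median 1.88). Acaa1b, a peroxisomal thiolase (1424451_at), was at 15.33 and 15.15 in the proximal tubule and at 7.95, 10.96, 14.19 and 10.87 in the S-shaped body. Over the other 18 arrays it ran from 6.76 through a median of 10.76 to 14.19. Both proximal tubule arrays lay above all 18, and the log2 fold change was 4.90 (SE 0.94, adjusted p = 0.000299). Its probe set may also read the close paralogue Acaa1a, whose own probe set was higher by 1.20 (SE 0.42, adjusted p = 0.0482).

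Acox2, the peroxisomal oxidase of branched chains and bile acid intermediates (1420673_a_at), was at 12.64 and 8.28 in the proximal tubule. It was at 6.53, 6.09, 5.89 and 6.09 in the S-shaped body, and between 5.67 and 9.16 (median 6.60) over the other 18 arrays. Replicate 1 was above every other array, and replicate 2 was below renal corpuscle replicate 3. The log2 fold change was 3.72 (SE 0.68, adjusted p = 0.000166) against the other 5 and 4.31 (SE 0.79, adjusted p = 0.000326) against the S-shaped body. Most levels outside the proximal tubule were in the lower range of the arrays, where the offset makes fold changes smaller.

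Ehhadh, the peroxisomal bifunctional enzyme (1448382_at), was at 11.68 and 10.04 in the proximal tubule and at 7.59, 5.62, 11.39 and 8.23 in the S-shaped body. The other 18 arrays ran from 5.32 through 7.90 to 11.39, and S-shaped body replicate 3 lay between the 2 proximal tubule arrays. It was higher by 3.16 (SE 0.87, adjusted p = 0.0104) against the other 5. Against the S-shaped body the difference was 2.65 (SE 1.01, adjusted p = 0.0888), and with those same libraries left out it was 3.72 (SE 0.92, adjusted p = 0.00575). Phyh, the first enzyme of alpha-oxidation (1460194_at), was at 14.78 and 12.19 in the proximal tubule, and at 11.76, 10.68, 12.56 and 11.39 in the S-shaped body. Its 18 other arrays lay between 10.66 and 12.56, with a median of 11.18, and 3 of them were at or above proximal tubule replicate 2. The log2 fold change of Phyh was 2.12 (SE 0.48, adjusted p = 0.00177) against the other 5.

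The other 3 peroxisomal oxidation members were not called. Hsd17b4, the second peroxisomal bifunctional enzyme, was at 13.19 ± 0.36 (SD, n = 2) in the proximal tubule with a difference of 0.66 (SE 0.29, adjusted p = 0.123) against the other 5. Both its proximal tubule arrays were above the 4 S-shaped body arrays. Scp2, a sterol carrier protein with thiolase activity, was at 14.36 and 12.62 in the proximal tubule, so that replicate 2 lay within the range of the others. Against the other 5 components its further probe sets gave 1.49, 1.44 and 1.00, where the one used gave 0.85. The second probe set of Hsd17b4 gave 0.53, and that of Abcd3 gave 0.25 where the one used gave 0.01. Abcd3 was at 13.99 and 13.11, inside the range of the other 18 arrays (12.56 to 14.35).

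**Figure D2:**
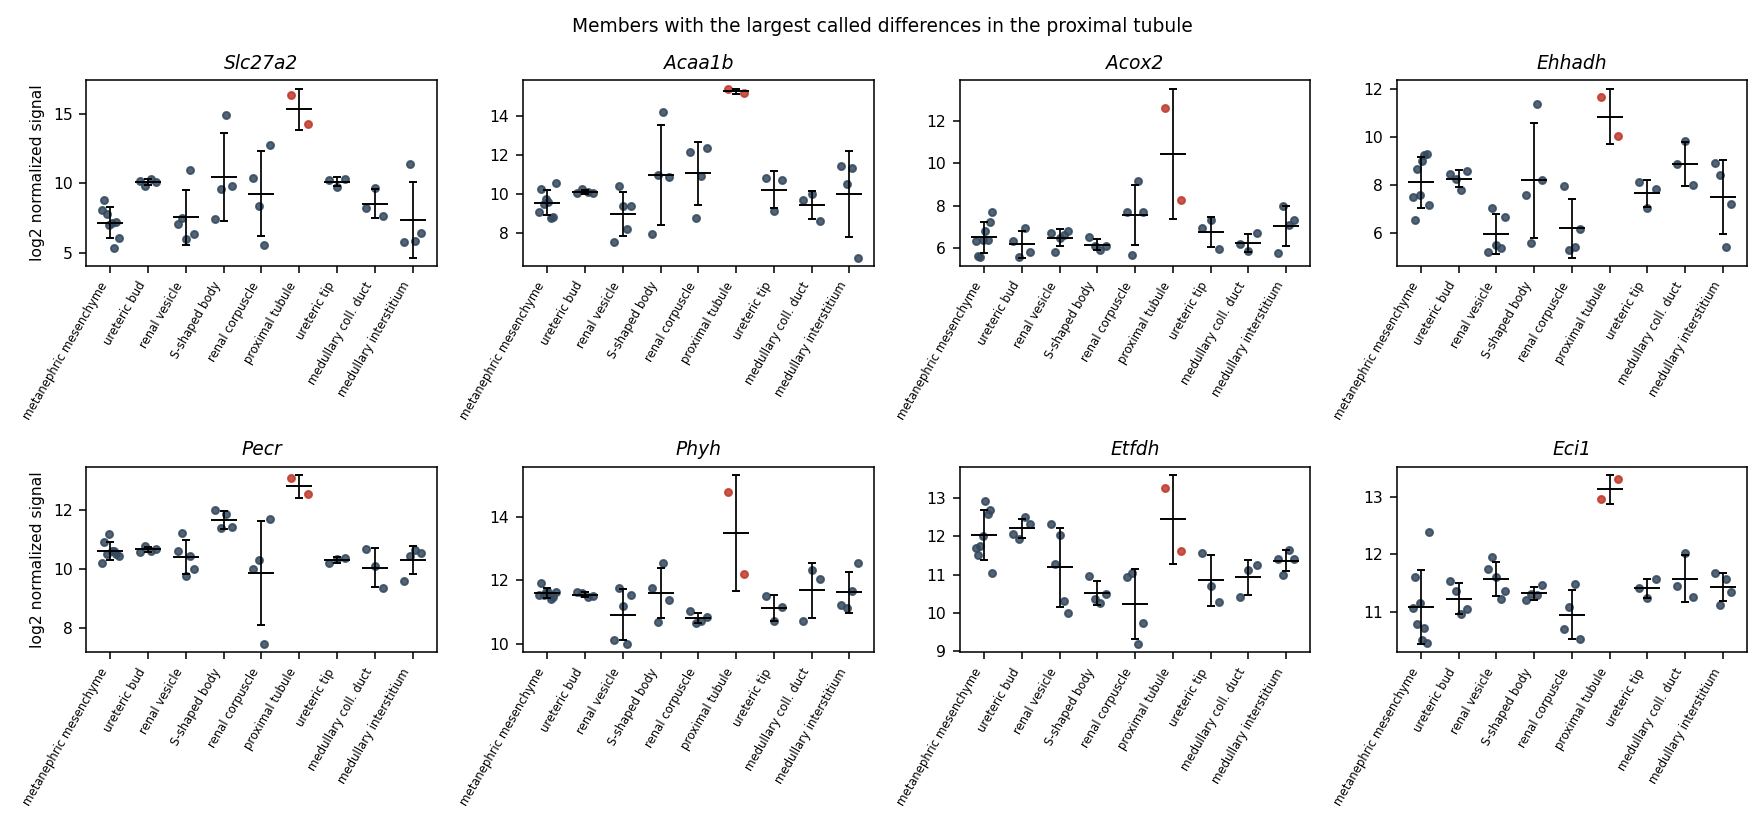
Log2 normalized signal (y axis) of the 8 members with the largest called differences in the proximal tubule, by component (x axis); points are arrays, the proximal tubule in red, and bars are the mean and SD. Acaa1b, Pecr and Eci1 are above all other E15.5 arrays in both proximal tubule arrays, and Acox2, Slc27a2, Phyh, Etfdh and Ehhadh differ by over 1.5 between these 2 arrays.

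Of the auxiliary enzymes that handle double bonds, 2 of 4 were called higher against the other 5 components. Pecr, a peroxisomal trans-enoyl-CoA reductase (1448910_at), was at 13.06 and 12.52 in the proximal tubule, and at 11.98, 11.38, 11.86 and 11.43 in the S-shaped body. The lowest of the other 18 arrays was at 7.47, their median at 10.41 and the highest at 11.98. The groups did not overlap, and the log2 fold change was 2.35 (SE 0.52, adjusted p = 0.00144). Its second probe set gave 1.34, and with the probe set of largest variance Pecr was not called. Against the S-shaped body the difference of Pecr was 1.13 (SE 0.60, adjusted p = 0.25).
Eci1, the mitochondrial enoyl-CoA isomerase (1418321_at), was at 12.95 and 13.30 in the proximal tubule, and at 11.21, 11.32, 11.29 and 11.47 in the S-shaped body. The 18 other arrays ran from 10.53 through 11.34 to 12.03, again without overlap. Eci1 was higher by 1.78 (SE 0.36, adjusted p = 0.000457) against the other 5 and by 1.80 (SE 0.41, adjusted p = 0.00339) against the S-shaped body. Eci2 and Decr1, a dienoyl-CoA reductase, were not called, with differences of 0.38 and 0.56 against the other 5.

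Among mitochondrial acyl-CoA dehydrogenases, Acadm was higher by 1.30 (SE 0.43, adjusted p = 0.0348) and Acadvl, the very long-chain enzyme, by 1.28 (SE 0.44, adjusted p = 0.0422) against the other 5. Acadm was at 15.15 and 13.37 in the proximal tubule and Acadvl at 13.61 and 14.07, and both overlapped with other E15.5 arrays. Acadl and Acads, the long- and short-chain enzymes, were not called. Etfdh, which passes electrons from the flavoprotein to the respiratory chain (1451084_at), was at 13.27 and 11.63 in the proximal tubule, and at 10.96, 10.37, 10.26 and 10.49 in the S-shaped body. It was higher by 1.67 (SE 0.51, adjusted p = 0.0219) against the other 5, where the 18 arrays lay between 9.18 and 11.65, with a median of 10.95. Its partners Etfa and Etfb were not called.

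None of the 6 mitochondrial hydratase, dehydrogenase and thiolase members (Hadha, Hadhb, Hadh, Echs1, Acaa2, Acat1) was called in either comparison by limma. Their median log2 fold change was 0.13 against the other 5 and 0.07 against the S-shaped body. Hadhb, a subunit of the trifunctional protein, had an adjusted p of 0.0395 by limma with a difference of 0.87 (SE 0.30), under the fold threshold. Without replicate 1 Hadha was called, and without replicate 2 Hadhb. Other probe sets of Acaa2, a mitochondrial thiolase, gave -1.19 and -1.69 where the one used gave 0.00. With probe sets of lower specificity (suffix _x_at or _s_at) left out, Acaa2 was called lower, which made 11 members higher and 1 lower against the other 5. In the carnitine shuttle, Crat, carnitine acetyltransferase, was higher by 1.40 (SE 0.40, adjusted p = 0.0134) against the other 5, and its further probe sets gave 3.02 and 1.48. Cpt1a, Cpt2 and Slc25a20 were not called in the proximal tubule, nor were Pex11a, a peroxisome division factor, and Cat.

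**Figure D3:**
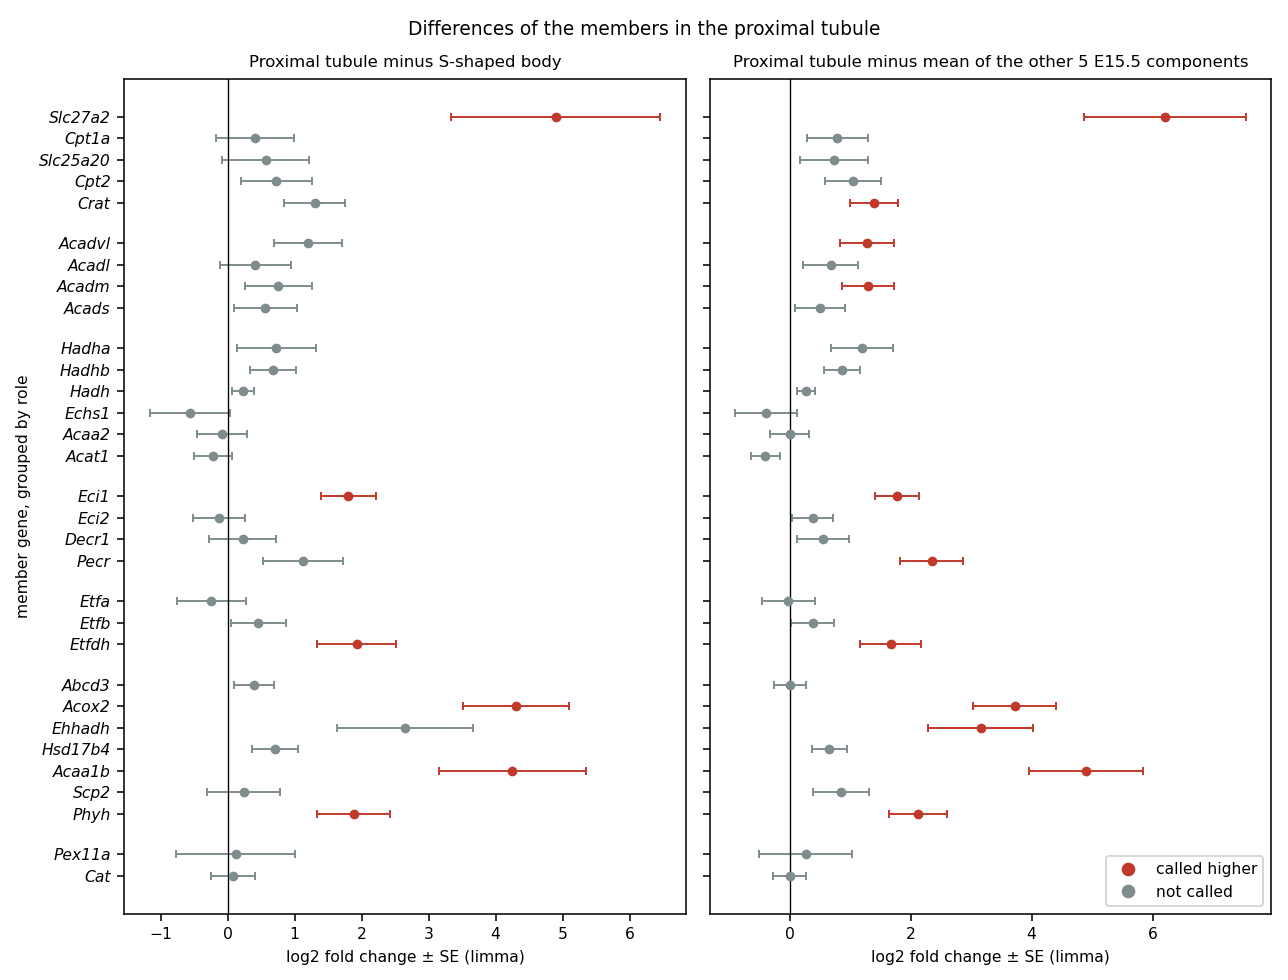
Log2 fold changes of the 31 members (rows, grouped by role) in the proximal tubule against the S-shaped body (left) and against the mean of the other 5 components of E15.5 (right); bars are the SE from limma and red marks members called higher. Slc27a2, Acaa1b, Acox2 and Ehhadh lie farthest to the right in the right panel, at 6.20, 4.90, 3.72 and 3.16, and the hydratase, dehydrogenase and thiolase block lies between -0.40 and 1.20.

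The 2 proximal tubule arrays differed, and most calls were lost without replicate 1. It was the higher of the 2 for 22 of 31 members, and for 48.9% of all genes, and for 7 of 7 peroxisomal oxidation members. The median of those 7, each taken relative to its mean over the 37 arrays, was 3.29 in replicate 1 and 0.70 in replicate 2. For the 13 mitochondrial members it was 0.93 and 0.28. Replicate 2 lay below S-shaped body replicate 3 (0.98) and a collecting duct array (0.84) in the peroxisomal median. Its mitochondrial median was below the middle (0.47) and highest (0.66) of the 3 collecting duct arrays. It was also below S-shaped body replicate 3 (0.59) and medullary interstitium replicate 1 (0.45).

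Without replicate 1, 3 members were called higher against the other 5 (Acaa1b 4.81, Hadha 2.21 and Eci1 1.96), and 1 against the S-shaped body (Eci1 1.97). Of all genes 8.5% and 5.55% were then called in either direction, so these counts are near or below the background. Acox2 was then at 1.54 (adjusted p = 0.227) and Phyh at 0.82 (adjusted p = 0.411) against the other 5, by limma with the remaining array assumed to vary like the other groups. Slc27a2 was at 5.14 (adjusted p = 0.0785). Without replicate 2 the counts were again 11 and 6, where 13.5% and 11.1% of all genes were called, but the members differed. Against the other 5, Acadvl (adjusted p = 0.267) and Crat (adjusted p = 0.143) were lost by limma, and Acadl (2.06) and Hadhb (1.42) were called. Against the S-shaped body Slc27a2 was lost (adjusted p = 0.0502) and Acadl was called (1.80). Eci1 in both comparisons, and Acaa1b against the other 5, were called whichever single array was left out.

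The title date code of replicate 2 was shared by 1 array each of the S-shaped body, ureteric tip, collecting duct and interstitium. Among these 5 arrays it was highest for 14 of 31 members and for 32.3% of all genes. Relative to the mean of the other 4 it was higher by 5.42 for Slc27a2, 4.39 for Acaa1b, 2.37 for Acox2, 2.15 for Pecr, 1.98 for Ehhadh and 1.65 for Eci1. The called members Phyh (0.85), Etfdh (0.83) and Acadm (0.34) differed less, and Phyh and Acadm were not highest in it. Etfa (-1.14), Acadl (-0.97) and Abcd3 (-0.65) lay below that mean. With the date code as a fixed term 0 members were called in either comparison by limma, and 2.15% and 0.509% of all genes were called in any direction. The estimates against the other 5 were then 5.35 for Slc27a2 (adjusted p = 0.254), 4.26 for Acaa1b (adjusted p = 0.331) and 1.70 for Eci1 (adjusted p = 0.092). Several other called members were smaller than without the term, with Acox2 at 2.26, Ehhadh at 1.95, Etfdh at 0.90, Phyh at 0.86 and Acadm at 0.36. Crat was larger, at 1.69, and Acadl, which was not called, stood at -0.90. The code of replicate 1 was shared only with mesenchyme replicate 6 and bud replicate 3. With the fixed term, replicate 1 had no part in the proximal tubule estimates, which rested on replicate 2. Against the S-shaped body they equalled the difference between replicate 2 and the S-shaped body array of its date code. That was 4.19 for Acaa1b, 2.19 for Acox2 and 1.98 for Eci1. The fixed term is therefore not separate from the loss of replicate 1.

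Of the RNA integrity controls, 1 of 2 set the proximal tubule apart from every other E15.5 array. The log2 ratio of the 5′ to the 3′ control probe set of Actb was -3.37 and -4.50 in the proximal tubule and between -3.06 and -1.35 in the other E15.5 arrays. That of Gapdh was -5.58 to -5.25 in the proximal tubule, with the lowest median (-5.42) of the 9 components. Among the other E15.5 arrays only S-shaped body replicate 1 (-5.70) lay below it, and the next was S-shaped body replicate 2 (-5.05). Macrophage markers averaged 10.19 in proximal tubule replicate 1 and 7.96 in replicate 2, within the range of all arrays (7.46 to 10.52), and podocyte markers averaged 9.69 and 9.55. Some other marker averages were higher in replicate 2, where most members were lower. Nephron progenitor markers averaged 9.28 in replicate 1 and 10.71 in replicate 2, ureteric epithelium markers 10.32 and 11.14, and interstitium markers 11.80 and 12.34. Some single markers of these lists differed more, and in both directions. Six2 was at 8.52 and 13.10 in replicates 1 and 2, Foxd1 at 7.37 and 13.38 and Ret at 5.41 and 11.33. The interstitium marker Lum went the other way, at 13.77 and 8.78. So did the ureteric epithelium markers Cdh1 (13.38 and 11.51) and Aqp2 (9.52 and 7.29). The part of these values in the results was not tested.

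**Figure D4:**
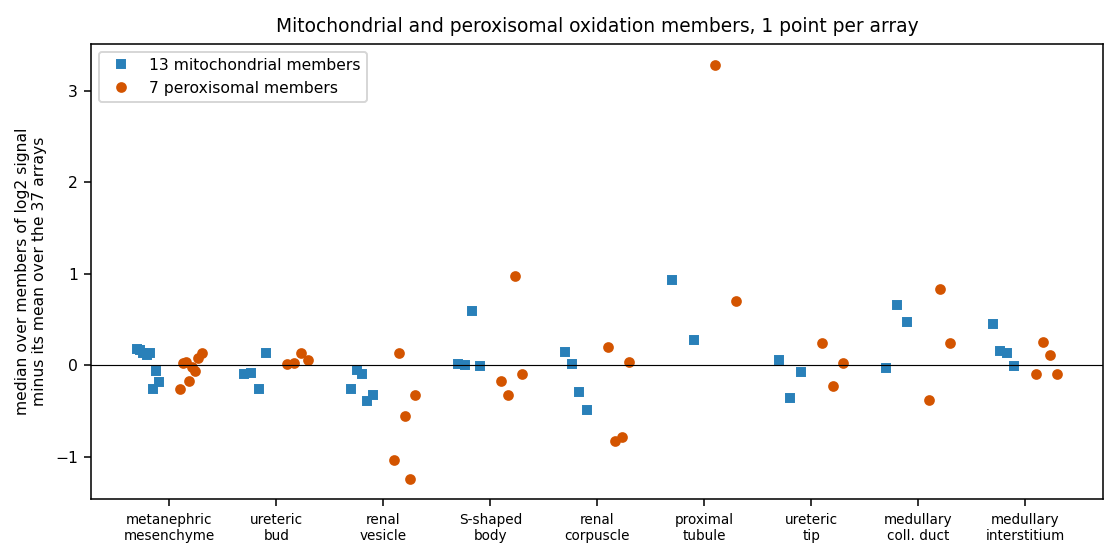
Median log2 signal, relative to each gene's mean over the 37 arrays, of the 13 mitochondrial members (squares) and the 7 peroxisomal oxidation members (circles) in every array (y axis), by component (x axis). The 2 proximal tubule arrays are at 3.29 and 0.70 for the peroxisomal members and at 0.93 and 0.28 for the mitochondrial members, and renal vesicle arrays reach -1.24 for the peroxisomal members.

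Other genes of the pathways were read from 10 lists with 161 genes, of which 138 were measured. Against the other 5 components 42 were called higher and 4 lower in the proximal tubule, and against the S-shaped body 29 higher and 3 lower. The shares of all genes called higher and lower were 9.15% and 6.08% in the first and 5.64% and 4.28% in the second comparison, and short lists with 1 call are near them. Without proximal tubule replicate 1 these counts were 17 and 3, and 7 and 2; without S-shaped body replicate 3 and renal corpuscle replicate 4 they were 49 and 5, and 37 and 5. Of 16 acyl-CoA synthetases and thioesterases, 8 were higher against the other 5, led by the medium-chain synthetases Acsm2 (6.41, SE 1.12, adjusted p = 8.91e-05) and Acsm1 (5.32). Acsm1 was at 15.20 and 8.98 in the 2 proximal tubule arrays, and Acsm2 at 16.14 and 15.67. Of 11 peroxisomal oxidases and transaminases, 5 were higher, among them the hydroxyacid oxidase Hao2 (6.41, SE 1.08, adjusted p = 5.28e-05), the aminotransferase Agxt2 (5.16), which acts in mitochondria, and D-amino acid oxidase, Dao (4.40).

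Of 16 other peroxisomal lipid enzymes 7 were higher, including the racemase Amacr (3.45), the epoxide hydrolase Ephx2 (3.22) and Hacl1 (2.78), the lyase that follows Phyh in alpha-oxidation. Of 22 peroxins and peroxisome membrane genes 5 were higher, among them Pxmp2 (3.08), Pex16 (2.65), a peroxin of membrane assembly, and Pxmp4 (2.35), and 1 was lower, the fission dynamin Dnm1l (-1.88, SE 0.46, adjusted p = 0.00356). Of 17 other mitochondrial dehydrogenase and oxidation genes 3 were higher, with Acad10 at 3.18, and Echdc1 was lower (-2.47). In the uptake list 3 of 10 were higher, with the binding protein Fabp3 at 4.40 (SE 0.69, adjusted p = 1.64e-05) and the transport protein Slc27a4 at 2.41. In the carnitine list 1 of 8 was higher, Aldh9a1, an enzyme of carnitine synthesis (1.91). Of 3 measured ketone body genes, Bdh2 was higher (3.45). Of 17 fatty acid synthesis and desaturation genes, which run the opposite way, 3 were higher, with the carbohydrate-response factor Mlxipl at 4.20 and the desaturase Scd1 at 2.40.

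Among 18 transcription regulators of lipid oxidation, 6 were higher and 2 lower against the other 5. Hnf4a, a nuclear receptor of proximal tubule and liver, was higher by 4.58 (SE 0.91, adjusted p = 0.000429), at 15.13 and 14.79 in the proximal tubule and 11.98 to 13.53 in the S-shaped body. Klf15 was higher by 3.00 and Foxo1 by 2.28, and the corepressor Nrip1 was lower (-2.01, SE 0.49, adjusted p = 0.00389). Ppara, the fatty acid receptor that drives many of these genes in liver, and its coactivator Ppargc1a, both named here after their values were seen, were not called. The difference was 1.16 (SE 0.56, adjusted p = 0.159) for Ppara; that of Ppargc1a was -0.24 (SE 0.92, adjusted p = 0.892).

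The genes outside the list whose 9 component means were most like the mean profile of the members were Galnt11 (Pearson r = 0.984), Os9 (0.976), Entpd5 (0.975) and Aadac (0.974). This is a likeness over 9 points dominated by the proximal tubule, and it is given as a description. Aadac, an arylacetamide deacetylase, was at 13.59 in the proximal tubule and at most 7.86 in the other 8 components. The next 6 were Tmem176b, Qdpr, Tmem198, Fggy, Dolk and Hps3, with r from 0.963 to 0.969.

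The renal vesicle was compared with the metanephric mesenchyme, from which it forms. In the vesicle 5 of 31 members were lower and 0 higher, where 7.93% of all genes were called lower, 3.87% higher and 11.8% in either direction. The groups did not overlap for 2 members that were lower and 0 that were higher, beside 3.73% and 2.76% of all genes. The median log2 fold change was -0.53 for the members and -0.06 for all genes. Echs1, the mitochondrial short-chain enoyl-CoA hydratase (1452341_at), was at 11.63, 12, 8.82, 10.61 and 11.94 in vesicle replicates 1 to 5. In the 8 mesenchyme arrays it ran from 12.12 through a median of 12.93 to 13.30, without overlap. The log2 fold change was -1.88 (SE 0.39, adjusted p = 0.00118). Decr1 was at 11.23 ± 0.77 (SD, n = 5) in the vesicle, where the lowest array was at 9.94 and the highest at 12, and between 12.20 and 13.14 (median 12.62) in the mesenchyme, a change of -1.48 (SE 0.33, adjusted p = 0.00219). Its second probe set gave -0.26.

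Ehhadh was at 5.21, 7.07, 5.54, 5.39 and 6.70 in the vesicle, all low levels, and between 6.55 and 9.30 (median 8.15) in the mesenchyme. Its change was -2.15 (SE 0.66, adjusted p = 0.0257). Pex11a was at 5.75, 9.35, 5.35, 6.88 and 10.23 in the vesicle and between 8.23 and 9.74 (median 9.31) in the mesenchyme, so that the vesicle arrays lay on both sides of it. The change of Pex11a was -1.73 (SE 0.59, adjusted p = 0.0418), and its second probe set gave 0.73. Slc25a20 was lower by -1.27 (SE 0.43, adjusted p = 0.0399), and its second probe set gave -2.15. In the other direction Acat1, the mitochondrial acetoacetyl-CoA thiolase, had a difference of 0.80 (SE 0.18, adjusted p = 0.00317), under the fold threshold.

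Echs1 and Decr1 were called whichever single array was left out. Without renal vesicle replicate 1, or without mesenchyme replicate 7, 2 members were called, and without renal vesicle replicate 4 or mesenchyme replicate 1, 2, 3 or 5, 3 were called. Against the 4 mesenchyme arrays titled dissected or collagenase 3 were lower. Against the 3 titled laser capture 0 were lower and 1 higher, and the share of all genes called fell from 11.8% to 2.41%, with Echs1 at -1.88 (adjusted p = 0.0514), Decr1 at -1.27 (adjusted p = 0.117) and Acat1 higher by 1.04 (adjusted p = 0.00601). The part of the collection method in the other results was not tested. Of the 138 listed genes 4 were higher and 9 lower, no larger a share than the 3.87% and 7.93% of all genes. The lower ones included Ech1 (-1.75), a peroxisomal and mitochondrial dienoyl-CoA isomerase, Gstk1 (-2.54), a glutathione transferase of the same organelles, and Pex7 (-1.52), the receptor for a class of peroxisomal matrix proteins. Hnf4a was higher by 2.08 (SE 0.69, adjusted p = 0.0387).

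Between the renal vesicle and the S-shaped body, 2 members were higher in the later stage and 0 lower, where 3.29% of all genes were called higher, 1.74% lower and 5.03% in either direction. The groups did not overlap for 5 members, all above the vesicle (Cpt1a, Etfb, Pecr, Scp2 and Cat), beside 3.25% of all genes above and 3.3% below. Of these, Pecr, Scp2 and Cat were not called. The other probe set of Pecr gave -0.16 where the one used gave 1.26. Those of Scp2 gave 0.25, 0.08 and -0.10 beside 1.28, and that of Cat 0.84 beside 0.59. The median of the members was 0.78 and that of all genes -0.04, and with arrays centred on their medians these were 0.42 and -0.23. Cpt1a, the carnitine palmitoyltransferase at the outer mitochondrial membrane that controls entry (1460409_at), was at 11.11, 10.14, 11.48 and 10.35 in the S-shaped body. It was at 8.78, 9.85, 9.19, 8.11 and 8.81 in the vesicle, without overlap. The log2 fold change was 1.82 (SE 0.45, adjusted p = 0.014), and its other probe sets gave 2.48 and 1.61. Etfb, the beta subunit of the flavoprotein (1428181_at), was at 12.23, 12.85, 13.41 and 12.05 in the S-shaped body, and at 11.25, 12.03, 11.78, 11.27 and 11.37 in the vesicle. It was higher by 1.09 (SE 0.32, adjusted p = 0.0364).

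Without S-shaped body replicate 3 no member was called by limma, the share of all genes called was 2.14% in place of 5.03%, and the adjusted p of Cpt1a was 0.0764 at a difference of 1.59. Without renal vesicle replicate 2 or 3, 5 members were called, without S-shaped body replicate 1, 4, and without renal vesicle replicate 4, 1. The Actb 5′ to 3′ ratio was -2.96 to -1.85 in the S-shaped body and -4.38 to -3.85 in the vesicle, and its part in the difference was not tested. Among the listed genes 9 were higher and 1 lower, with Fabp4 (5.08), Acsm2 (3.95), Hnf4a (3.68) and Esrrg (3.50) the largest rises and Scd1 the fall (-2.34).

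**Figure D5:**
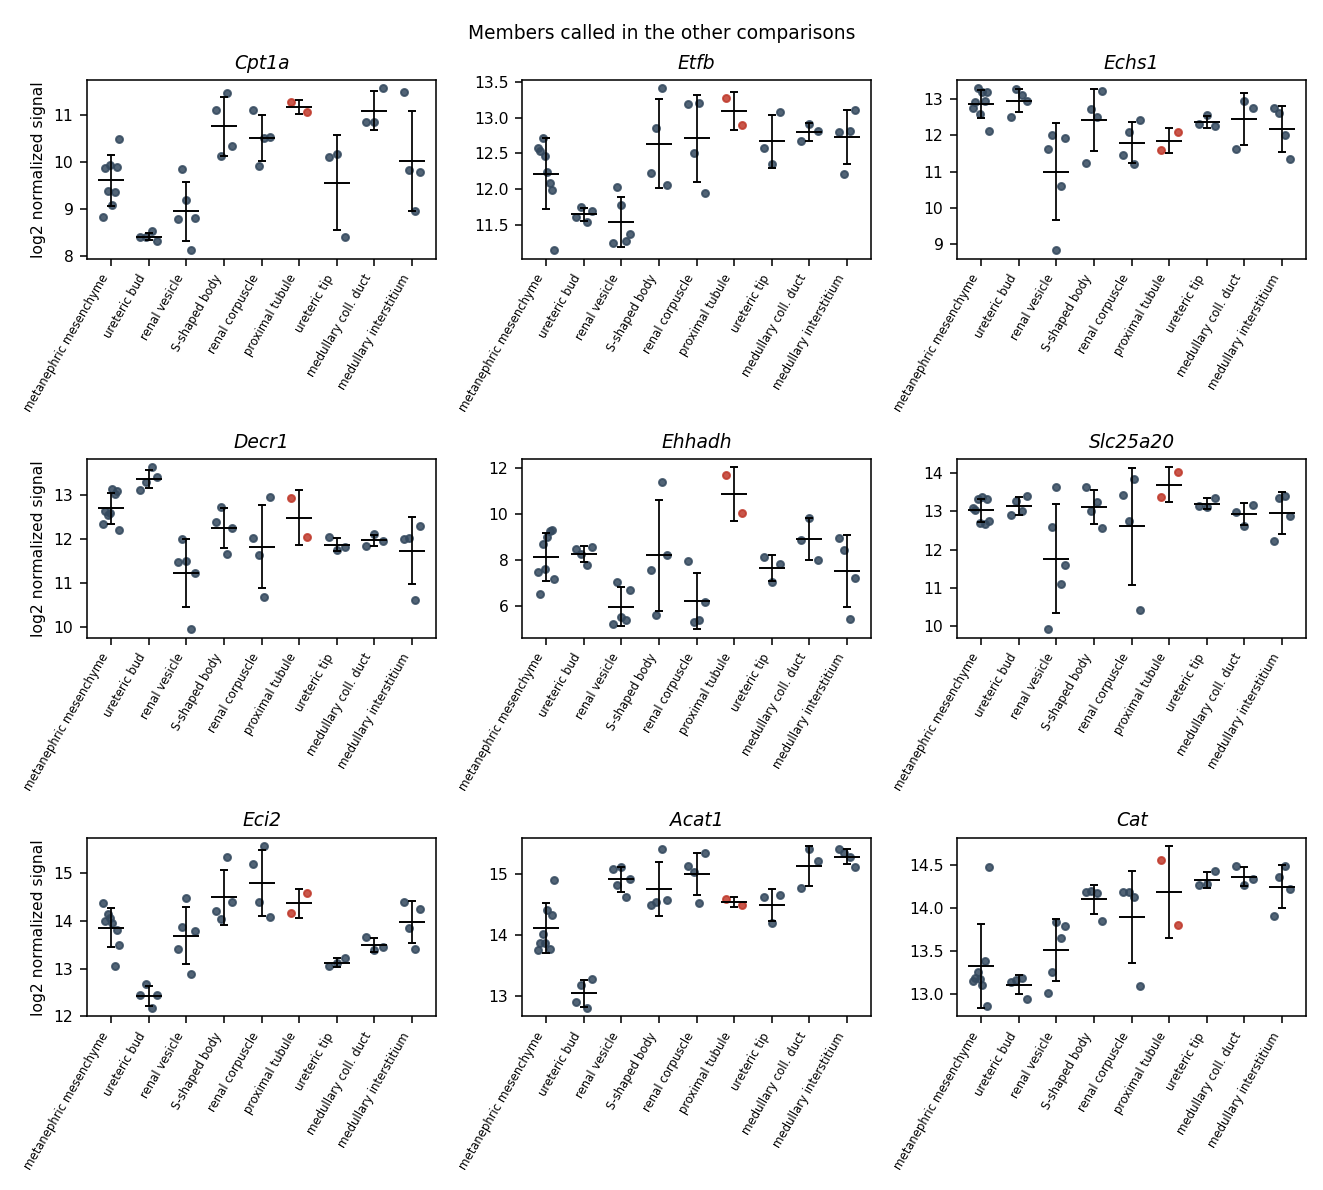
Log2 normalized signal (y axis) of 9 members called outside the proximal tubule comparisons, by component (x axis); points are arrays, the proximal tubule in red, and bars are the mean and SD. Echs1 and Decr1 are lower in all 5 renal vesicle arrays than in the 8 mesenchyme arrays, and Eci2 and Acat1 are lower in the 4 ureteric bud arrays than in the mesenchyme.

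The ureteric bud was compared with the mesenchyme that surrounds it. There 2 members were lower in the bud and 0 higher, where 4.07% of all genes were called lower, as many higher, and 8.14% in either direction. Without overlap 1 member was higher and 3 lower, beside 7.27% and 6.02% of all genes. Eci2 (1431012_a_at) was at 12.44, 12.67, 12.17 and 12.44 in the bud and between 13.05 and 14.37 (median 13.98) in the mesenchyme, lower by -1.43 (SE 0.28, adjusted p = 0.000369). Acat1 (1451271_a_at) was at 12.90, 13.18, 12.79 and 13.27 in the bud, below the mesenchyme mean of 14.12 ± 0.41 (SD, n = 8) by -1.08 (SE 0.20, adjusted p = 0.000188). The groups did not overlap for either gene. Without mesenchyme replicate 8 Acat1 changed by -0.97 and only Eci2 was called. Slc27a2 was at 9.84 to 10.29 in the 4 bud arrays, above the mesenchyme range of 5.34 to 8.79, with a difference of 2.93 (SE 1.10, adjusted p = 0.106). Cpt1a was at 8.41 ± 0.08 (n = 4) in the bud and 9.61 ± 0.54 (n = 8) in the mesenchyme, with an adjusted p of 0.0642 by limma.

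The ureteric tip of E15.5 was compared with the ureteric bud of E11.5. Quantile normalization gave 2 members higher and 2 lower, where 2.04% of all genes were called higher, 2.19% lower and 4.23% in either direction. Without overlap 6 members were higher and 7 lower, beside 10.2% and 23.6% of all genes. Acat1 was at 14.63, 14.19 and 14.65 in the tip, above the 4 bud arrays, and rose by 1.46 (SE 0.25, adjusted p = 0.000335); its further probe sets gave 0.93 and 0.79. Cat (1416429_a_at) was at 14.26, 14.28 and 14.43 in the tip and 13.14, 13.16, 13.18 and 12.94 in the bud, a change of 1.22 (SE 0.29, adjusted p = 0.00933), but its second probe set gave 0.14. Decr1 was at 12.04, 11.75 and 11.83 in the tip and 13.13, 13.30, 13.64 and 13.41 in the bud, a change of -1.50 (SE 0.44, adjusted p = 0.0404). Hadhb was at 12.93, 12.87 and 12.83 against 14.04, 13.91, 14.27 and 13.77, a change of -1.12 (SE 0.30, adjusted p = 0.0246), while its further probe sets gave 0.51 and 0.54.

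This comparison depended on the scaling. The median deposited signal was 127 to 133 in the bud arrays and 292 to 312 in the tip arrays. Centring the arrays on their medians moved the median difference of all genes from -0.22 to -0.88, and then 0 members were higher and 9 of 31 lower, where 4275 of 15709 genes were lower and 28.7% were called in either direction. The members' share is thus near the background under this scaling. Under that scaling, beside the all-gene median of -0.88, Acat1 differed by 0.20 and Cat by -0.03 on the log2 scale, Decr1 by -2.61 and Hadhb by -2.23. Without any 1 of the 3 tip arrays, or without bud replicate 1 or 3, 2 members were called, Acat1 and Cat. Day, title method and title date differ together between the 2 groups and cannot be told apart.

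In 3 comparisons among E15.5 components no member was called by limma. For the renal corpuscle against the S-shaped body 5 of 31 members had an unadjusted p under 0.05, as did 13.3% of all genes. After adjustment 0.579% of all genes were called, 0.102% higher and 0.477% lower. Without S-shaped body replicate 3 and renal corpuscle replicate 4 this share was 4.07%, and 1 member was called lower. With all arrays the groups did not overlap for 0 members higher and 1 lower, beside 1.4% and 2.16% of all genes. The largest of the 5 differences was that of Ehhadh, at -1.98 (SE 0.82, adjusted p = 0.276), followed by Pecr at -1.80 (SE 0.49, adjusted p = 0.0784). For the ureteric tip against the medullary collecting duct there were 4 such members of 31, beside 5.84% of all genes. After adjustment 0.356% of genes were called, 0.121% higher and 0.236% lower. Cpt1a was at 10.11, 10.18 and 8.39 in the tip and 10.86, 10.87 and 11.58 in the collecting duct, with a difference of -1.54 (SE 0.55, adjusted p = 0.405). Arrays did not overlap for 8 members lower in the tip and 1 higher, where 7.84% and 7.24% of all genes did not overlap. For the collecting duct against the interstitium an unadjusted p under 0.05 was found for 2 of 31 members and for 15.7% of all genes. After adjustment 4.48% of genes were called, 2.46% higher and 2.02% lower. Without overlap 1 member was higher and 1 lower, beside 6.12% and 9.25% of all genes. Abcd3 was at 13.81, 14.35 and 14.16 in the collecting duct and at 13.30, 13.32, 13.25 and 12.56 in the interstitium. Its difference, 1.00 after rounding (SE 0.27, adjusted p = 0.0211), was just under the fold threshold. Among the listed genes Pparg (3.38, SE 0.92, adjusted p = 0.0241) and Ppargc1b (2.88, SE 0.78, adjusted p = 0.0232), a nuclear receptor and a coactivator of lipid metabolism, were higher in the collecting duct.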

How the data were processed

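RNA of 37 pooled samples was measured on 1 Affymetrix array each. The deposited values are signal intensity, computed by the authors with GCOS per the submitters' processing notes (version not given in the sources used here). A trimmed mean (2%) of 1500 was found in each column, which is the mark of global scaling. Amplification in 2 rounds, per the labels' protocols, favours the 3′ ends of transcripts.

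Of 45101 probe sets, 64 were controls, 34945 had 1 gene in the annotation used, 932 several and 9160 none; only those with 1 gene were named. Intensity plus 34.66 (the 20th percentile) was taken to log2 and quantile normalized. Probe sets above 7.89, the pooled median, in at least 2 arrays were kept (35806), with the highest mean probe set per gene (15709 genes). Limma 3.58.1 in R 4.3.3 fitted 1 mean per component to all arrays, with moderated variances and a trend, and p-values were adjusted by Benjamini and Hochberg over all genes. The scripts were tested on simulated data.

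The members and lists were chosen with earlier results of these data known. Arrays are printed singly for the 8 largest called members in the proximal tubule and up to 3 per direction elsewhere; from each list the largest 3 calls and 1 other gene per comparison may be named, and up to 10 genes of like profile. Alternatives were 2 other offsets, median centring, no filter and a stricter one, the probe set of largest variance, no _x_at or _s_at sets, array weights, fits of the compared components, date code or replicate number as a term, mesenchyme by title method, and each array left out. Leaving out S-shaped body replicate 3 with renal corpuscle replicate 4, and the list counts without single libraries, were chosen after seeing the data.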

Additional observations from a re-analysis of the deposited data

Results flagged for a closer look

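In groups of 4 to 10 arrays, 15 of 186 combinations of member and component had 1 array separated from the others by Dixon's criterion, where chance flags about 1 in 20. The mesenchyme replicate 8 was the outlying array for 4 members. It was low for Acadl (10.33) and Etfb (11.14) and high for Hadha (10.47) and Cat (14.48), against highest values of 8.95 and 13.38 in the other 7 mesenchyme arrays for Hadha and Cat. Ureteric bud replicate 3 was low for Cpt2 (11.69), Acads (9.22) and Hadh (15.98).

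S-shaped body replicate 3, whose proximal tubule markers were high, was high for Acat1 (15.42) and Pex11a (10.65). Medullary interstitium replicate 2 had Slc27a2 at 11.41, against 5.79 to 6.42 in the other 3, and replicate 4 had Abcd3 at 12.56. Renal vesicle replicate 3 had Acaa2 at 12.29. Catalase was low in ureteric bud replicate 4 (12.94), S-shaped body replicate 4 (13.85) and renal corpuscle replicate 4 (13.09), the last of which also had podocyte markers below the other corpuscle arrays.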

How the results depend on the processing

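No call among the 30 member calls was kept under every alternative, and 8 were kept whichever array was left out. Leaving out 1 array in turn gave 1 to 7 calls for proximal tubule against S-shaped body, 3 to 11 against the other 5, 0 to 5 for S-shaped body against renal vesicle, 2 to 6 for vesicle against mesenchyme, 1 to 3 for bud against mesenchyme, 2 to 3 for tip against bud, and 0 to 1 for the corpuscle against S-shaped body, tip against collecting duct, and collecting duct against interstitium; the F-test passed 21 to 25 members. In the order proximal tubule against S-shaped body and against the other 5, array weights gave 2 and 6 calls, fitting only the compared components 0 and 7, and the date as a fixed term 0 and 0. S-shaped body against vesicle gave 0 calls with array weights, with compared components only and without the 2 libraries that stood apart, and 1 with median centring or the date as a random block. Vesicle against mesenchyme gave 3 calls with median centring, compared components only or dissected mesenchyme, and 1 with laser-captured mesenchyme. Bud against mesenchyme gave 4 with compared components only, 1 with the largest-variance probe set or laser-captured mesenchyme, and 0 with the date fixed. Tip against bud gave 9 with median centring or array weights, 7 with compared components only and 0 with the largest-variance probe set. Corpuscle against S-shaped body gave 1 with median centring and 1 without the 2 libraries, tip against collecting duct 4 with array weights, and collecting duct against interstitium 1 with offset 16, array weights or the random date block. Directions reversed for Cat (-0.03, median centring) and Hadhb (0.54, largest variance) in tip against bud, and for Cpt2 (1.06) and Hadh (1.74) in vesicle against mesenchyme with the largest-variance probe set. Median centring gave 16 calls against the other 5 and moved the median of all genes there from 0.11 to 0.30. Leaving out _x_at and _s_at probe sets there gave 11 calls higher and 1 lower (Acaa2). The cause of these changes was not tested, except that fewer arrays or another probe set entered the fit where the setting says so. The date as a fixed term was fitted only where the compared groups share a date code. It was thus not fitted for S-shaped body against vesicle, vesicle against mesenchyme, corpuscle against S-shaped body, and tip against bud. In the proximal tubule comparisons this term left replicate 1 without a part in the estimates.

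Title replicate numbers did not pair the samples: 28 same-numbered pairs had deviations correlated at -0.216 to 0.174. As a replicate block the title numbers gave 1 call for bud against mesenchyme and 1 for collecting duct against interstitium. Levels near the low end of the arrays, as for Acox2 and Ehhadh outside the proximal tubule, are set partly by the offset.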
